A study of Mus musculus with 10 samples.

Results

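The Schwann cell and myelin genes Mbp, Pmp22, Prx, Sox10, Mal, Cnp, Mag and Cldn19 were examined in abdominal aorta. These 8 genes were chosen by name, and every probe set whose annotation gave exactly 1 of these symbols was taken. Of the 45101 probe sets in the table, 19 belonged to 7 of the 8 genes. Prx, which encodes periaxin of peripheral myelin, was not analysed here. RNA from the aorta of 10 female mice at 16 weeks (4 months) of age was hybridised to Affymetrix mouse expression arrays, 1 array per mouse. The 4 WT mice were C57BL/6 littermates without the transgene. The 6 KCASP1Tg mice carried human caspase-1 under the K14 promoter, which is active in keratinocytes of the skin, so the transgene was not directed to the vessel or its nerves. The labels name each array as a mouse of its own, whereas the study's methods give fewer mice for these arrays than the labels do. Each array was taken as 1 mouse here, and n counts arrays. No other allele or agent was given for either group, and the labels describe the tissue as dechorionated abdominal aorta. Each mouse is given here by its group and number.

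Schwann cells are the glia of peripheral nerves. Some wrap an axon in the many membrane layers of myelin, and others, the Remak Schwann cells, hold bundles of thin axons, such as the sympathetic fibres around arteries, without myelin. Sox10 is the transcription factor that Schwann cells need for their identity and for switching on myelin genes. Mbp and Pmp22 encode proteins of compact myelin, Mal encodes a lipid raft protein of the sheath, and Cnp, Mag and Cldn19 encode proteins of its uncompacted parts and junctions. Some of these genes are also used elsewhere: Pmp22 in fibroblasts and other non-neural cells, Mal in T cells and kidney tubules, and Cldn19 in kidney tubules.

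Promoter sequences of Mbp and Prx were not looked up. Of the other genes, the RefSeq promoter table (GRCm38.p6) held 5, of which 4 passed the signal filter used below. For each of these 4 the window at its most upstream start is shown, to set the sequence before the gene beside its signals. Each window is the 250 bases before a transcription start, 5′ to 3′ on the gene's strand. Capitals mark a match to ACAAAG or ACAATG on either strand, short words that fit the core of Sox family binding sites.
Mal, chr2:127656696-127656945, minus strand: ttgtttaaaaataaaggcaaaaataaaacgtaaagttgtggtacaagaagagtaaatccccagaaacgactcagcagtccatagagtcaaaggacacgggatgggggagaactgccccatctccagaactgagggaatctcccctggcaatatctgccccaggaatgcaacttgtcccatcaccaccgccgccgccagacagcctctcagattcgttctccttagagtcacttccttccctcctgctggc
Mag, chr7:30914923-30915172, minus strand: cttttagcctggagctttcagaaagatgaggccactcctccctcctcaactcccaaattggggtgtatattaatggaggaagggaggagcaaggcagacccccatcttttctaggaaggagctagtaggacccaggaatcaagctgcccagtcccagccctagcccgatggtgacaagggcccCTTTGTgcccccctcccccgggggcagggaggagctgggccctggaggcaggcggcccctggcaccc
Cnp, chr11:100574689-100574938, plus strand: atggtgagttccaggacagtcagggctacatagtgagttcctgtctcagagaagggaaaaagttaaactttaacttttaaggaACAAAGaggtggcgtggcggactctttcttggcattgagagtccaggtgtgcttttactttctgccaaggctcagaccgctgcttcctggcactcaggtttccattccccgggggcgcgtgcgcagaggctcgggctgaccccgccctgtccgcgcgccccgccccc
Pmp22, chr11:63128732-63128981, plus strand: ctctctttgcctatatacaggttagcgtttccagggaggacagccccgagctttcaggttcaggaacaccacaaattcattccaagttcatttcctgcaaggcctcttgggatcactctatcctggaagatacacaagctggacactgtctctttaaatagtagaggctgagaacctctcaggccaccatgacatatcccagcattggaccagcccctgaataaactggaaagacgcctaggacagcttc
The Mag and Cnp windows each held 1 match, and the Mal and Pmp22 windows held 0. The window at the most downstream start of Mag and those at the other starts of Pmp22 also held 0. Such a match occurred in 25.2% of the 32851 windows of this length in the table, so its presence is a description of these letters only. The Cnp window held 13 CpG dinucleotides and the Mal window 7, against a median of 6 over all windows, and the Mag and Pmp22 windows held 3 each. Windows at the other starts held 14, 14 and 27 for Pmp22, and 3 and 2 for Mag.

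Mbp and Mal had lower average signals in KCASP1Tg than in WT mice, and no member gene passed the test for a difference. Of the 19 probe sets, 17, of 6 genes, reached a signal of 100 on 4 or more arrays and were tested. The call was a limma adjusted p under 0.05, after Benjamini-Hochberg adjustment over all 26242 tested probe sets. By this rule 0 of 17 member probe sets were called in either direction, where 0.0686% of all tested probe sets were called higher and 0% lower. All 17 fold changes were below 0, with a median log2 fold change of -0.28, while 50.4% of all tested probe sets lay below 0. At an unadjusted limma p under 0.05, 7 of 17 were lower, 6 of Mbp and 1 of Mal, against 3.42% of all tested probe sets, and 0 were higher, against 4.52%. In 0 member probe sets did the groups separate, while 0.949% of all tested probe sets had every KCASP1Tg mouse below every WT mouse and 1.98% had every one above. By the exact Mann-Whitney test 0 member probe sets were lower at an unadjusted p under 0.05, against 2.90% of all tested probe sets. Probe sets of 1 gene are not independent measurements. The members were also chosen with earlier results of these data known, so the shares set beside them are a description. In whole aorta, fewer Schwann cells and less RNA per Schwann cell cannot be told apart.

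**Figure D1:**
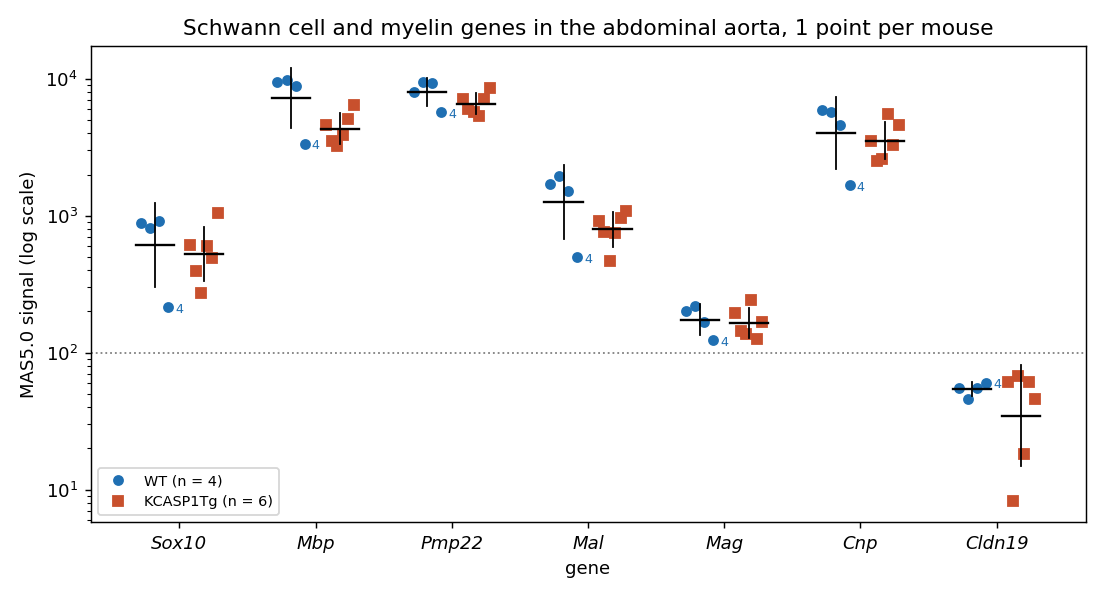
MAS5 signal (log axis) of each measured gene's probe set of highest mean signal, with 1 point per mouse, bars giving the mean ± SD of log2 values, and a dotted line at a signal of 100. WT 1 to 3 lie above every KCASP1Tg mouse for Mbp (8818 to 9816 against 3233 to 6401) and Mal, whereas WT 4, marked 4, lies inside the KCASP1Tg range for both.

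Mbp encodes myelin basic protein, which holds the layers of compact myelin together. Its probe set of highest mean signal (1433532_a_at) had signals of 9457, 9816, 8818 and 3373 in WT 1 to WT 4. In KCASP1Tg mice the lowest signal was 3233 (KCASP1Tg 3), the median 4248 and the highest 6401 (KCASP1Tg 6). WT 1 to 3 were thus above all KCASP1Tg mice, and WT 4 was below all but 1 of them. The mean was 7866 ± 3024 (SD, n = 4) in WT and 4460 ± 1176 (SD, n = 6) in KCASP1Tg. The log2 fold change was -0.74 (standard error 0.31, 95% confidence interval -1.43 to -0.05), which did not pass after adjustment by limma (adjusted p = 0.592). The two-sided exact Mann-Whitney test gave p = 0.171, where the smallest p this design allows is 0.00952.

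Mbp was read by 8 probe sets, and they fell into 2 patterns. In 6 of them WT 1 to 3 were high and WT 4 low, and each pair of these 6 correlated across the 10 mice with r between 0.945 and 0.997. Their log2 fold changes ran from -0.74 to -1.08. For 1419646_a_at the WT signals were 4226, 4561, 3992 and 1325, and the KCASP1Tg signals ran from 1123 over a median of 1498 to 2373. WT 4 was again among the KCASP1Tg mice. The log2 fold change of this probe set was -1.04 (standard error 0.36, 95% confidence interval -1.84 to -0.24, limma adjusted p = 0.478). For 1454651_x_at the WT signals were 1551, 1558, 1630 and 403, the KCASP1Tg signals ran from 355 over a median of 531 to 904, and the log2 fold change was -1.08 (standard error 0.41, limma adjusted p = 0.529).

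The other pattern was found in 1425263_a_at and 1425264_s_at, which did not follow the 6 (r between -0.03 and 0.36) and correlated with each other at r = 0.58. The first had WT signals of 563, 520, 520 and 439 and KCASP1Tg signals from 377 over a median of 484 to 669. The second had WT signals of 808, 615, 739 and 737 and KCASP1Tg signals from 481 over a median of 671 to 947. WT 4 did not stand apart in either, and the groups overlapped widely. The log2 fold changes were -0.07 (95% confidence interval -0.42 to 0.29) and -0.04 (95% confidence interval -0.47 to 0.38). Which Mbp transcripts each probe set reads was not analysed here. In a further fit, limma gave less weight to arrays that lay farther from their group's mean values in these same data. With these weights 3 of the 6 were called lower by limma, namely 1419646_a_at (log2 fold change -1.27, adjusted p = 0.0435), 1436201_x_at (-1.06, adjusted p = 0.043) and 1454651_x_at (-1.44, adjusted p = 0.0373). In that fit 0.240% of all tested probe sets were called lower and 0.777% higher, against 0% and 0.0686% without weights, so calls were more frequent over all probe sets too. WT 4 had a weight of 0.376 and KCASP1Tg 4 a weight of 0.281.

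**Figure D2:**
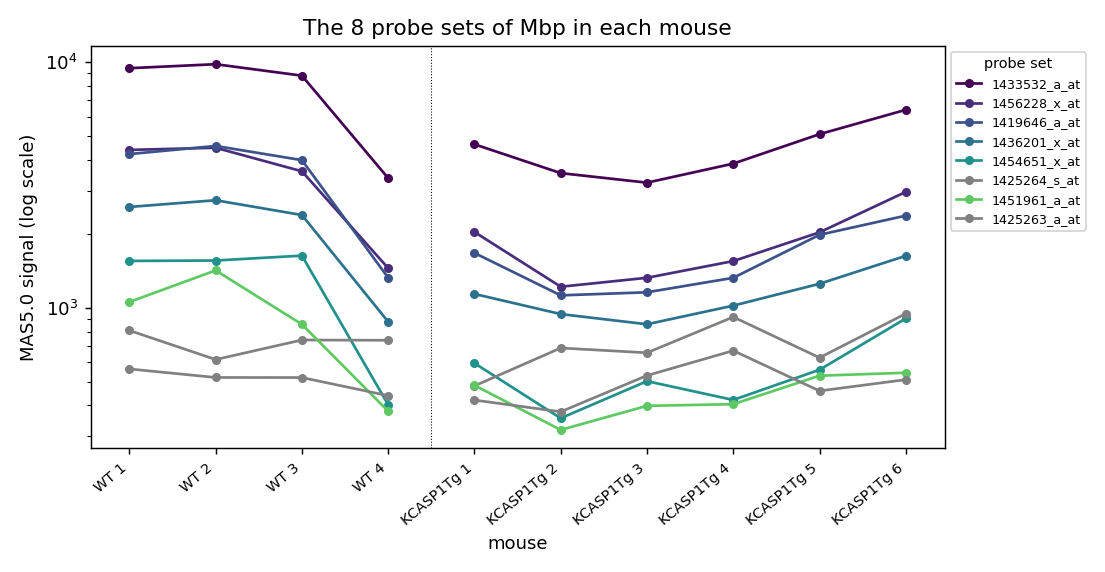
MAS5 signal (log axis) of the 8 Mbp probe sets in each mouse, with lines joining the mice of 1 probe set and grey lines for 1425263_a_at and 1425264_s_at. The 6 coloured lines share a drop in WT 4 and in the KCASP1Tg mice, and the grey lines stay between 377 and 947 in all 10 mice.

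Pmp22, a membrane protein of compact peripheral myelin, varied less. Its signals were 8008, 9536, 9355 and 5692 in WT 1 to WT 4. In KCASP1Tg mice they ran from 5359 (KCASP1Tg 4) over a median of 6574 to 8600 (KCASP1Tg 6). WT 4 was the lowest WT mouse and the groups overlapped. The mean was 8148 ± 1773 (SD, n = 4) in WT and 6672 ± 1205 (SD, n = 6) in KCASP1Tg, and the log2 fold change was -0.28 (standard error 0.18, 95% confidence interval -0.68 to 0.13, limma adjusted p = 0.781).

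Mal followed Mbp. Its first probe set (1417275_at) had signals of 1706, 1952, 1508 and 498 in WT 1 to WT 4. In KCASP1Tg mice the lowest was 468 (KCASP1Tg 3), the median 839 and the highest 1080 (KCASP1Tg 6). WT 1 to 3 were above every KCASP1Tg mouse, and WT 4 was below all but 1. The mean was 1416 ± 638 (SD, n = 4) against 822 ± 214 (SD, n = 6), and the log2 fold change was -0.66 (standard error 0.37, 95% confidence interval -1.49 to 0.17, limma adjusted p = 0.729, exact Mann-Whitney p = 0.171). The second (1432558_a_at) had WT signals of 1104, 1136, 942 and 522 and KCASP1Tg signals from 544 over a median of 605 to 736. WT 4 was below all KCASP1Tg mice there. Its log2 fold change was -0.51 (95% confidence interval -0.98 to -0.03, limma adjusted p = 0.592). T cells also use Mal, and the summed signal of 5 measured T cell genes was 356 to 522 in WT and 408 to 3026 in KCASP1Tg mice, highest in KCASP1Tg 4, where Mal was at 745. The 5 kidney tubule genes had no signal above 63.1 in any mouse.

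Seen across the 17 tested probe sets, all 6 KCASP1Tg mice lay below WT 1, WT 2 and WT 3 in 8, which were 6 of Mbp and both of Mal. The share over all tested probe sets was 2.54%. WT 4 was set aside here after its values were seen, so these counts are a description. Without WT 4 the log2 fold change was -1.11 for Mbp (1433532_a_at, limma adjusted p = 0.161) and -1.11 for Mal (1417275_at, limma adjusted p = 0.231), and 0 member probe sets were called. Of all 25961 probe sets tested in that fit, 13 were called higher and 2 lower.

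Cnp encodes an enzyme of the uncompacted myelin cytoplasm. Its probe set of highest mean signal (1437341_x_at) had signals of 5924, 5765, 4615 and 1665 in WT 1 to WT 4. In KCASP1Tg mice they ran from 2522 (KCASP1Tg 2) over a median of 3416 to 5532 (KCASP1Tg 4). WT 4 was the lowest of all mice, and all KCASP1Tg mice lay inside the WT range. The mean was 4492 ± 1973 (SD, n = 4) against 3690 ± 1181 (SD, n = 6), and the log2 fold change was -0.18 (standard error 0.37, 95% confidence interval -1.0 to 0.63, limma adjusted p = 0.967). The other Cnp probe sets had log2 fold changes of -0.24 (1418980_a_at) and -0.18 (1449296_a_at).

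Mag, a protein of the glial membrane that faces the axon, was measured by 1 probe set not far above the filter. It had signals of 202, 221, 169 and 123 in WT 1 to WT 4 and ran from 125 (KCASP1Tg 5) over a median of 156 to 243 (KCASP1Tg 4) in KCASP1Tg mice. The ranges nearly coincided. The mean was 179 ± 42.9 (SD, n = 4) against 169 ± 44.0 (SD, n = 6), and the log2 fold change was -0.08 (standard error 0.22, 95% confidence interval -0.57 to 0.40, limma adjusted p = 0.98). Cldn19, a tight junction claudin of Schwann cells, did not reach a signal of 100 in any mouse and was not tested by limma. Its signals were 55.3, 45.9, 55.6 and 60.4 in WT 1 to WT 4 and ran from 8.31 over a median of 53.4 to 67.1 in KCASP1Tg mice (exact Mann-Whitney p = 1.0).

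Sox10 differed more between mice of 1 group than between the groups. Its probe set of highest mean signal (1451689_a_at) had signals of 891, 810, 913 and 215 in WT 1 to WT 4. In KCASP1Tg mice the lowest was 272 (KCASP1Tg 3), the median 547 and the highest 1053 (KCASP1Tg 6). The highest signal of all was thus in a KCASP1Tg mouse and the lowest in a WT mouse. The mean was 707 ± 331 (SD, n = 4) against 571 ± 269 (SD, n = 6), and the log2 fold change was -0.23 (standard error 0.46, 95% confidence interval -1.26 to 0.80, limma adjusted p = 0.968). With 1 mouse left out it ran from -0.73 (without WT 4) to -0.037 (without WT 3). A second probe set (1424985_a_at) had signals of 198 to 290 in WT and 151 to 295 in KCASP1Tg mice, with a log2 fold change of -0.21 (limma adjusted p = 0.878). The third (1425369_a_at) reached 100 on 1 array only and was not tested.

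**Figure D3:**
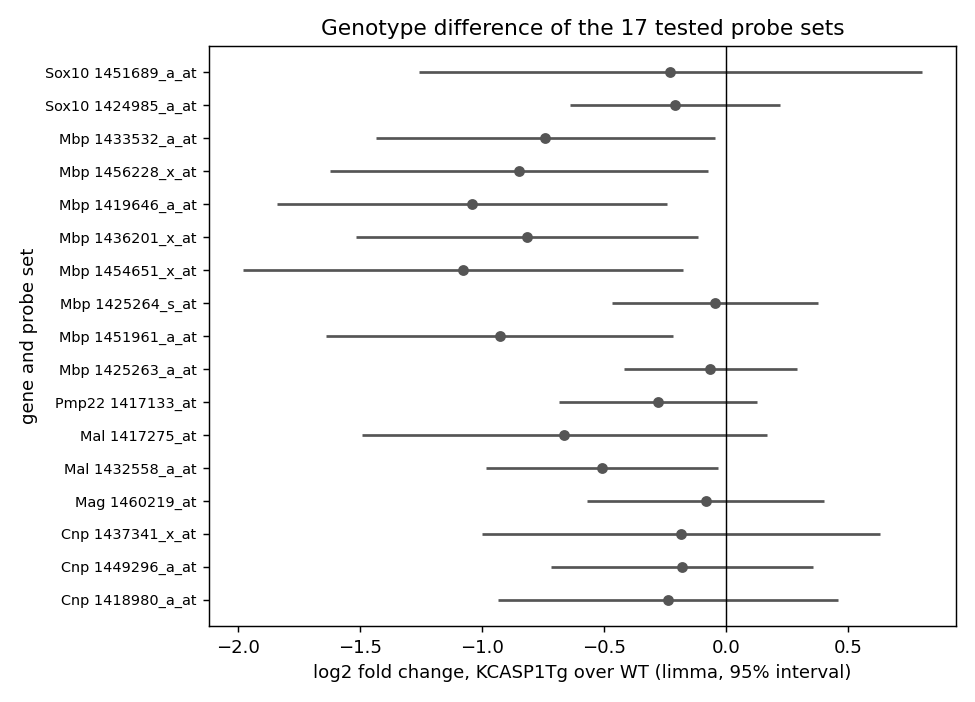
Log2 fold change (KCASP1Tg minus WT, x axis) of each of the 17 tested member probe sets with its 95% confidence interval. All points lie below 0, and the intervals of 6 Mbp probe sets and of 1432558_a_at of Mal end below 0, before adjustment over the 26242 tested probe sets.

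The spread among WT mice was large for most members. In Mbp, Mal, Cnp and Sox10 WT 4 lay far below WT 1 to 3. The SD of log2 signal among the 4 WT mice was 0.74 for Mbp, 0.90 for Mal, 0.86 for Cnp and 1.01 for Sox10, against a median of 0.24 over all tested probe sets. For Sox10 (1451689_a_at), 96.4% of tested probe sets had a smaller WT SD. The SD among WT mice was 0.34 for Pmp22 and 0.37 for Mag. Among KCASP1Tg mice the SD was 0.37 for Mbp, 0.43 for Mal, 0.45 for Cnp and 0.66 for Sox10. For Pmp22 it was 0.25 and for Mag 0.36 there, against a median of 0.29 over all tested probe sets. From the lowest to the highest mouse, Sox10 spanned 4.91-fold, Mal 4.17-fold, Cnp 3.56-fold, Mbp 3.04-fold, Mag 1.97-fold and Pmp22 1.78-fold.

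The members went up and down together between mice. Each of the 6 tested genes was compared across the 10 mice with the mean of the other 5, and p-values were adjusted over the 6. Sox10 correlated at r = 0.92 (rho = 0.88, permutation test adjusted p = 0.00039), Mal at 0.93 (rho = 0.90, permutation test adjusted p = 0.00039), Mbp at 0.90 (rho = 0.94, permutation test adjusted p = 0.00124), Cnp at 0.88 (rho = 0.89, permutation test adjusted p = 0.00124) and Pmp22 at 0.82 (rho = 0.77, permutation test adjusted p = 0.00709). Mag followed least closely (r = 0.63, rho = 0.65, permutation test adjusted p = 0.0531). The 2 mice farthest from the median of the other genes' mean were then left out. These were WT 4 and KCASP1Tg 3 for Mbp, Pmp22 and Mal, and WT 4 and WT 2 for the rest. The r was then 0.93 for Sox10, 0.87 for Mal, 0.91 for Mbp, 0.80 for Cnp, 0.75 for Pmp22 and 0.41 for Mag. Within the 6 KCASP1Tg mice alone, r was 0.98 for Sox10 (exact permutation adjusted p = 0.00833), 0.81 for Mbp and 0.79 for Mal (both exact permutation adjusted p = 0.122), 0.71 for Cnp, 0.59 for Pmp22 and 0.35 for Mag. The common order of the mice was therefore found within KCASP1Tg mice for Sox10, and the other genes did not pass there. The 4 WT mice are too few for a correlation.

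The genes whose signal across the 10 mice was most like the mean of Mbp, Sox10 and Mag were found among 12289 other genes. They were Cdh19, a cadherin of Schwann cells (r = 0.988), Gpm6b, a glial membrane protein (r = 0.984), Cmtm5 (r = 0.982), Erbb3, the neuregulin receptor of Schwann cells (r = 0.982), and Sostdc1, a secreted signalling antagonist (r = 0.981). Against the mean of all 6 tested members the first 5 were Cmtm5, Sostdc1, Gpm6b, Cdh19 and Shroom2, with r from 0.984 to 0.991. Cdh19 had signals of 2172, 2439, 1964 and 558 in WT 1 to WT 4 and from 790 (KCASP1Tg 3) to 2070 (KCASP1Tg 6) in KCASP1Tg mice. WT 4 was the lowest mouse there too. All genes share the 10 arrays, so these values describe likeness only.

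**Figure D4:**
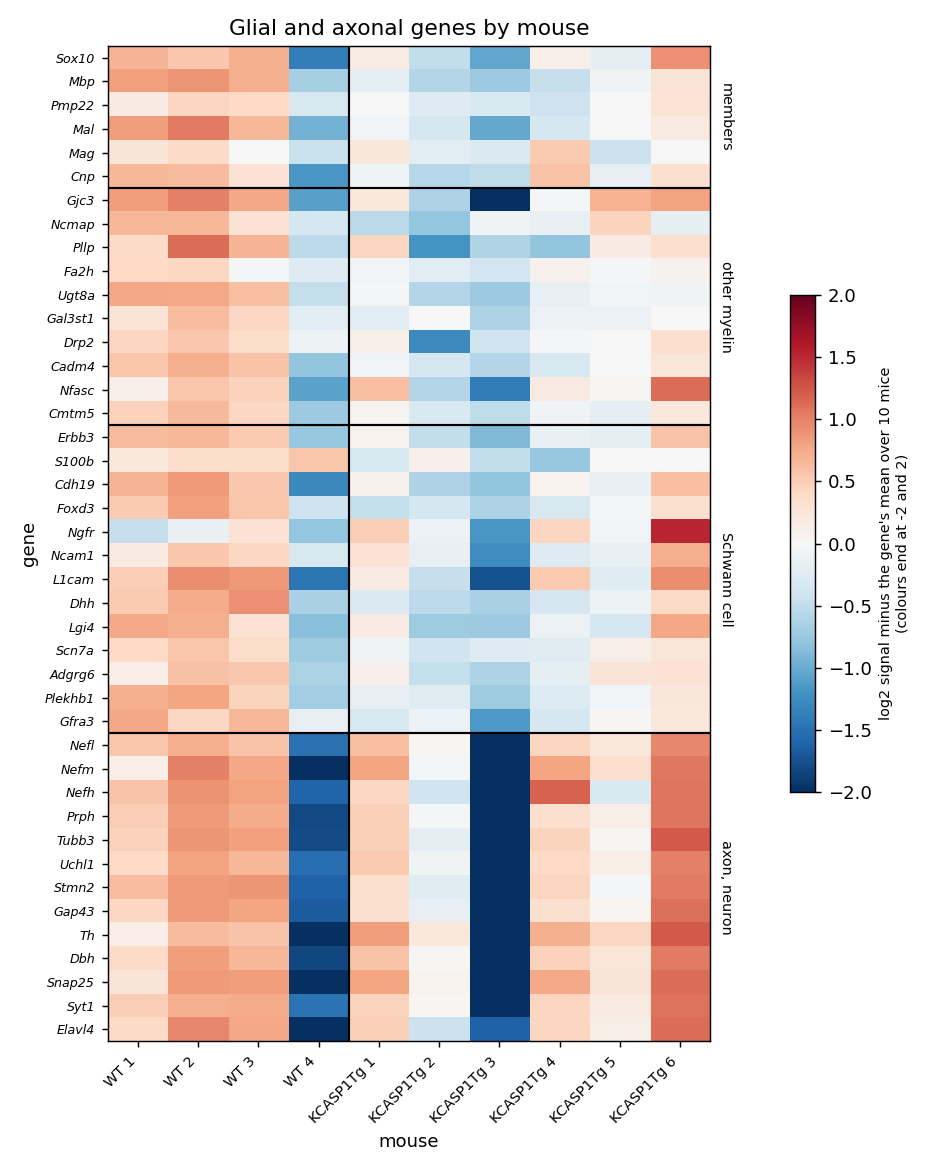
Log2 signal of the members and of other Schwann cell and axon genes in each mouse, centred on each gene's mean over the 10 mice, with colours ending at -2 and 2. The columns of WT 4 and KCASP1Tg 3 are mostly low in members and in axon genes, and those of WT 1 to 3 and KCASP1Tg 6 mostly high.

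Axon and neuron genes varied with the members. The mean log2 signal of 13 axon and neuron genes was 12.24, 12.67, 12.57 and 10.02 in WT 1 to WT 4, and 12.37, 11.74, 9.44, 12.38, 11.96 and 12.92 in KCASP1Tg 1 to 6. WT 4 and KCASP1Tg 3 were thus the lowest and KCASP1Tg 6 the highest. Uchl1, a ubiquitin hydrolase of neurons, had a signal of 3043 in WT 4 and 11512 to 15226 in the other WT mice, and of 1749 in KCASP1Tg 3 and 8357 to 17614 in the other KCASP1Tg mice. Th, the tyrosine hydroxylase of noradrenaline synthesis that marks sympathetic neurons, was at 1626 in WT 4 and 1029 in KCASP1Tg 3. Between the groups 0 of 13 axon genes were called (median log2 fold change -0.14, range -0.31 to 0.29, lowest limma adjusted p = 0.971). Stmn2 was at the lower end, Th at the upper end, and Snap25, a protein of synaptic vesicle release, was at 0.08. How much nerve each piece of aorta held was not measured, nor whether these transcripts lay in axons or in the cell bodies of neurons.

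Against this axon mean, r was 0.91 for Sox10 (permutation test adjusted p = 0.00174), 0.80 for Mal (adjusted p = 0.0108 by permutation), 0.78 for Cnp (adjusted p = 0.0122 by permutation), 0.68 for Mbp and 0.66 for Pmp22 (both adjusted p = 0.037 by permutation) and 0.64 for Mag (adjusted p = 0.0443 by permutation). The rho values were 0.88, 0.71, 0.72, 0.76, 0.66 and 0.65 in the same order. Without WT 4 and KCASP1Tg 3, r was 0.88 for Sox10 (permutation test adjusted p = 0.0276), 0.46 for Mal, 0.67 for Cnp, 0.55 for Mbp, 0.62 for Pmp22 and 0.48 for Mag, and only that of Sox10 passed. The r of Mal depended most on those mice, and the r of Pmp22 changed little.

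**Figure D5:**
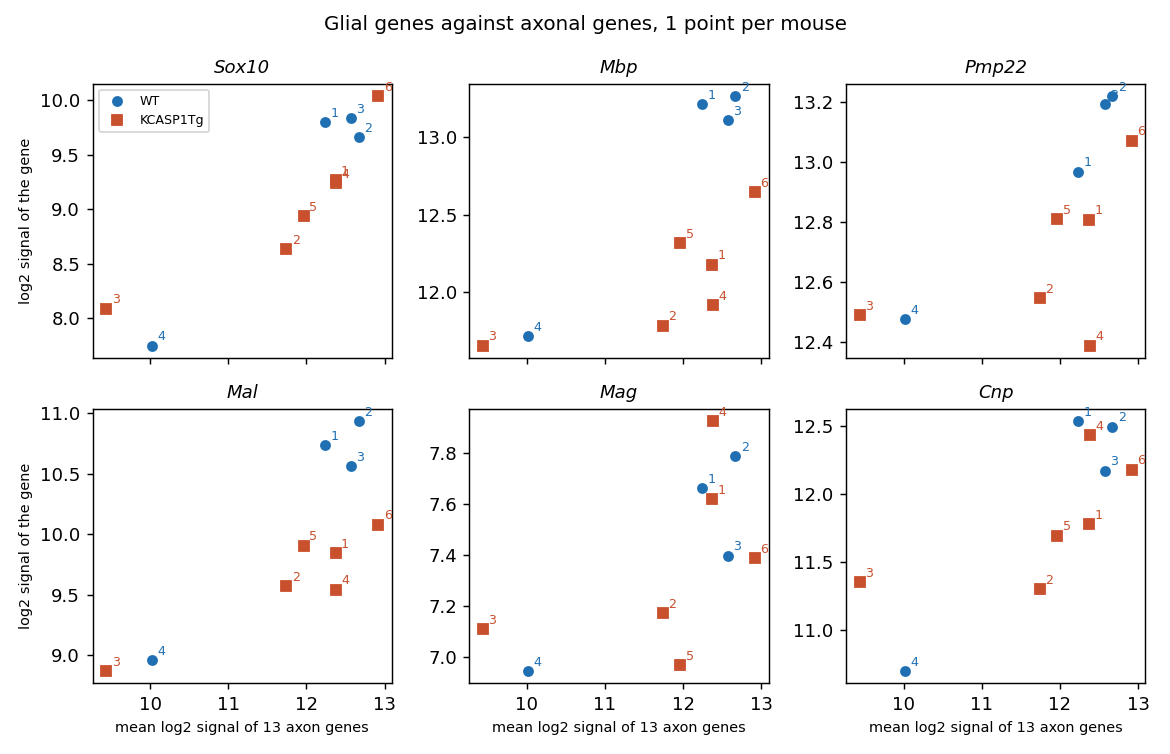
Log2 signal of 6 member genes (y axes) against the mean log2 signal of 13 axon genes (x axes), with 1 point per mouse, coloured by group and numbered within it. At axon means above 12, WT 1 to 3 lie above the KCASP1Tg mice for Mbp and Mal, while WT 4 and KCASP1Tg 3 form the left end of every panel.

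Mbp was also set against the mean signal of the axon and neuron genes in each mouse. The log2 signal of Mbp (1433532_a_at) minus the axon mean was 0.97, 0.59, 0.53 and 1.70 in WT 1 to WT 4. In KCASP1Tg 1 to 6 it was -0.19, 0.05, 2.22, -0.46, 0.35 and -0.27. All WT mice were above 5 of the 6 KCASP1Tg mice, and KCASP1Tg 3 was above all. WT 4 and KCASP1Tg 3 had the lowest axon means (10.02 and 9.44) and similar Mbp signals (3373 and 3233). Their high differences therefore come from the subtraction. The part of nerve content in the Mbp values was not tested. With the axon mean as a covariate, chosen after the data were seen, the log2 fold change was -0.71 for Mbp (1433532_a_at, standard error 0.19, 95% confidence interval -1.15 to -0.28, limma adjusted p = 0.238) and -0.63 for Mal (1417275_at, standard error 0.18, 95% confidence interval -1.04 to -0.22, limma adjusted p = 0.268). For Sox10 it was -0.19, for Cnp -0.16, for Pmp22 -0.27 and for Mag -0.07. Again 0 of 17 member probe sets were called, where 0.0991% of all tested probe sets were called higher and 0.0114% lower. At an unadjusted limma p under 0.05, 8 of 17 were lower, against 5.51% of all tested probe sets. The lowest adjusted p was 0.179 (1419646_a_at).

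Other genes of the myelin sheath were also lower on average in KCASP1Tg mice without passing the test. Of 11 measured, 10 were tested. None was called higher or lower (lowest limma adjusted p = 0.526). At an unadjusted limma p under 0.05, 2 were lower and 0 higher, against 3.42% and 4.52% of all tested probe sets. All 10 log2 fold changes were below 0, as were 50.4% of all tested probe sets. The median of the 10 was -0.48, against -0.00 over all tested probe sets. Cadm4, an adhesion molecule between Schwann cell and axon, had signals of 1476, 1659, 1501 and 585 in WT 1 to WT 4 and from 669 over a median of 885 to 1191 in KCASP1Tg mice, so WT 1 to 3 were again above and WT 4 below all KCASP1Tg mice. Its log2 fold change was -0.45 (limma adjusted p = 0.773). Ugt8a, the enzyme that makes the myelin lipid galactosylceramide, was at -0.69 (limma adjusted p = 0.526), and Pllp, a myelin membrane protein, at -0.69 (limma adjusted p = 0.733). Cmtm5 was at -0.33 (limma adjusted p = 0.832) and Nfasc, a protein of the node of Ranvier, at -0.02 (limma adjusted p = 0.999). Their other probe sets were lower, at -0.68 for Cmtm5 (1430600_at) and at -0.27 (1456068_at) and -0.76 (1459357_at, below the signal filter) for Nfasc.

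Of 16 genes of Schwann cell identity and signalling, 13 were tested and none was called (lowest limma adjusted p = 0.374). At an unadjusted limma p under 0.05, 3 were lower and 0 higher, against 3.42% and 4.52% of all tested probe sets. The 13 genes had a median log2 fold change of -0.40 (range -0.70 to 0.46). Of these, 12 lay below 0, against 50.4% of all tested probe sets. The median was -0.79 without WT 4, -0.24 without WT 2 and -0.13 without WT 1 and WT 3. Gfra3, a receptor for artemin, was at -0.70 (limma adjusted p = 0.531), and Dhh, the hedgehog ligand by which Schwann cells direct the nerve sheath, at -0.64 (limma adjusted p = 0.659). Scn7a, a sodium channel gene, was at -0.26 (limma adjusted p = 0.882). The adhesion genes Ncam1 and L1cam, which Schwann cells without myelin carry, were at -0.33 and -0.35 (limma adjusted p = 0.896 and 0.956). Among 4 tested perineurial genes, of the layer around a nerve bundle, none was called. At an unadjusted limma p under 0.05, 1 was higher and 0 lower, against 4.52% and 3.42% of all tested probe sets. Slc2a1, a glucose transporter also found in many other cells, was at 0.50 (limma adjusted p = 0.485), and Itgb4, Cldn1 and Ntng1 were at -0.19, -0.26 and -0.38. The other Cldn1 probe sets went in both directions, at 2.32 (1438850_at, exact Mann-Whitney p = 0.0667), 0.13 (1438851_x_at) and -0.41 (1450014_at). Of the 4 Cldn1 probe sets, 2 passed the signal filter.

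Markers of other cells were set beside these values. Of 8 oligodendrocyte genes, which mark the myelinating cell of the central nervous system, none reached the filter, and the highest single signal was 175 (Olig1 in WT 4), beside the Mbp signals of 3233 and more (1433532_a_at). The summed signal of 5 adipocyte genes was 108413 to 123812 in WT and 95564 to 149128 in KCASP1Tg mice, so fat transcripts were present in every mouse. That of 7 smooth muscle genes was 76762 to 87613 in WT and 33246 to 89859 in KCASP1Tg mice, lowest in KCASP1Tg 4, and all 7 log2 fold changes were below 0 (median -0.29, 0 called). All 5 fibroblast genes were also below 0 (median log2 fold change -0.41, 0 called, 2 lower at an unadjusted limma p under 0.05, lowest limma adjusted p = 0.44), a median as low as that of the Schwann cell identity genes. Over all tested probe sets 50.4% were below 0, and 3.42% were lower at an unadjusted limma p under 0.05. The summed signal of the fibroblast genes was 33828 to 37048 in WT and 25026 to 40395 in KCASP1Tg mice. Its part in the Pmp22 values was not tested. The 5 liver genes summed to 119588 in WT 1 and 54155 in WT 3, and to 294 to 6338 in the other 8 mice. The 5 heart muscle genes summed to 39355 in WT 4, 18801 in KCASP1Tg 1 and 10346 in KCASP1Tg 2, and to 149 to 913 in the others. The 5 neutrophil genes summed to 322 to 399 in WT and 6016 to 54652 in KCASP1Tg mice. The 3 B cell genes summed to 257 to 697 in WT and 326 to 9378 in KCASP1Tg mice, highest in KCASP1Tg 4. The part of these other tissues in the members' values was not tested beyond leaving out mice. Without WT 1 and WT 3, the mice with most liver transcripts, 0 members were called. Only WT 2 and WT 4 were then left in the WT group, and WT 4 was low in Mbp, Mal, Cnp and Sox10. Leaving out this pair therefore cannot separate liver transcripts from the low values of WT 4. In that fit 0 of all 25580 tested probe sets were called in either direction, so the count says nothing about the members. The log2 fold change there was -0.41 for Mbp (1433532_a_at), -0.31 for Mal (1417275_at), -0.16 for Pmp22, 0.33 for Sox10 (1451689_a_at) and 0.19 for Cnp (1437341_x_at).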

How the data were processed

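Total RNA of abdominal aorta was measured on Affymetrix mouse arrays in 4 WT and 6 KCASP1Tg mice, 1 array each. With MAS5, the authors made 1 intensity for each probe set and scaled every array to a mean of 500. These linear intensities were deposited. Their mean without the top and bottom 2% was 500.0 on all arrays, and 55.0% to 58.4% reached a signal of 100. No read depth exists for arrays, so the number of mice limits the precision.

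Of 45101 probe sets, 64 controls were left out, 34945 had 1 gene symbol, 932 several and 9160 none. By gene identifier, 34741 symbols were brought up to date and 204 were kept. Signals were floored at 1, and log2 values of probe sets that reached 100 on 4 or more arrays were fitted on genotype in limma 3.58.1 under R 4.3.3 and adjusted by Benjamini-Hochberg. Mann-Whitney p-values were exact and two-sided. Permutation tests were run in Python 3.11.15, with 100000 resamples over 10 mice, and were exact over 6. The limma fit on genotype was first tested on simulated log2 values, and the other steps were not. Promoters came from RefSeq, GRCm38.p6.

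The probe set of highest mean signal stands for its gene. From each list of nerve genes, the genes called, the 3 of highest mean signal and the 2 of largest log2 fold change were named, and the 5 genes of highest r were named for likeness. Members and lists were chosen with earlier results of these data known. Alternatives covered the floor, a pseudocount, the filter, quantile normalization, median centring, array weights, the Mann-Whitney test, the replicate number as a block and each mouse left out.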

Additional observations from a re-analysis of the deposited data

Results flagged for a closer look

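WT 4 stood apart from the other WT mice in 4 Mbp probe sets and 1 of Sox10. The gap from WT 4 to the nearest WT mouse, as a share of the whole WT range of log2 signal, was 0.9 for 1433532_a_at, 0.892 for 1419646_a_at, 0.878 for 1436201_x_at and 0.964 for 1454651_x_at of Mbp, and 0.917 for 1451689_a_at of Sox10. KCASP1Tg 3 stood apart from the other KCASP1Tg mice in 1425369_a_at of Sox10, with a share of 0.788 at a signal of 8.82, where the signal was too low to be tested between the groups. Of 38 groups of values looked at, 6 stood out in this way, and chance alone gives about 1 in 20. The probe sets of a gene are read from the same arrays, so these are not separate observations.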

How the results depend on the processing

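Of 377 fold changes of member probe sets under alternative settings, 364 kept their direction and side of the threshold, 3 passed it and 10 changed sign. The log2 fold change of Mbp (1433532_a_at) was -1.11 to -0.59 when 1 mouse was left out and -1.11 to -0.41 over all alternatives (adjusted p 0.067 to 1.0), and that of Mal (1417275_at) was -1.11 to -0.45 when 1 mouse was left out and -1.11 to -0.31 over all alternatives. With 1 mouse left out, Pmp22 ran from -0.44 to -0.19. With array weights, 3 member probe sets were called lower, where 0.240% of all tested probe sets were, and 0 under every other alternative and with any 1 mouse left out. The cause was not tested.

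Of the fold changes near 0, Mbp 1425263_a_at turned to 0.0074 without KCASP1Tg 2 (-0.16 to 0.0074 with 1 mouse left out) and 0.024 without WT 1 and WT 3, and Mbp 1425264_s_at to 0.011 without WT 1, 0.064 without KCASP1Tg 1 and 0.055 without WT 1 and WT 3 (-0.13 to 0.064 with 1 mouse left out). Cnp 1437341_x_at turned to 0.0014 without WT 1 (-0.61 to 0.0014 with 1 mouse left out) and 0.19 without WT 1 and WT 3, Sox10 1451689_a_at to 0.33 without WT 1 and WT 3, and Mag to 0.028 without WT 2 (-0.25 to 0.028 with 1 mouse left out).

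Over all probe sets, 18 were called higher. There were 204 with array weights and 0 by the exact Mann-Whitney test (1247 at an unadjusted p under 0.05, with 761 lower), 0 without WT 1 and WT 3, and 10 to 61 with 1 mouse left out: 10 without KCASP1Tg 1, 39 without KCASP1Tg 6 and 61 without KCASP1Tg 4. Against 0 called lower by limma (898 at an unadjusted p under 0.05), 1 was with a floor of 16, 2 with a pseudocount of 50, 2 without a filter, 3 at a signal of at least 200, 1 with quantile normalization, 2 with median centring, 63 with array weights, 3 with the axon mean as a covariate, 1 without WT 4 and KCASP1Tg 3, and 0 to 8 with 1 mouse left out, 8 without KCASP1Tg 4. The covariate and the settings that left out a pair of mice were chosen after seeing the data.

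With the replicate number as a block, 0 probe sets were called higher, 0 member probe sets were called, Mbp (1433532_a_at) was at -0.94 and Mag at 0.0083. The labels do not say whether the numbers pair mice. The deviations of same-numbered mice from their group means had correlations of 0.11, -0.31, -0.43 and -0.33 for numbers 1 to 4. These correlations cannot decide it, because differences between single mice, such as those in liver and heart muscle genes, enter them too. KCASP1Tg 5 and 6 had no WT mouse of the same number.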

Other observations

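S100b, a calcium-binding protein of Schwann cells that adipocytes also make, was singled out after its values were seen. Its probe set of highest mean signal (1434342_at) had signals of 968, 1067, 1080 and 1224 in WT 1 to WT 4 and from 495 (KCASP1Tg 4) over a median of 750 to 904 (KCASP1Tg 2) in KCASP1Tg mice. The groups did not overlap, as in 0.949% of all tested probe sets with KCASP1Tg below WT. The log2 fold change was -0.61 (standard error 0.18, limma adjusted p = 0.374), and the exact Mann-Whitney p of 0.00952 is the smallest this design allows. WT 4 was the highest mouse here and among the lowest in Mbp and Sox10. A second probe set (1419383_at) overlapped between the groups, with signals of 812 to 1096 in WT and 319 to 889 in KCASP1Tg mice.

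Of the 13 tested genes of Schwann cell identity and signalling, Ngfr, the nerve growth factor receptor of Schwann cells without myelin, was the 1 whose probe set of highest mean signal (1454903_at) had a log2 fold change above 0 (0.46, limma adjusted p = 0.884). Its other probe sets were at 0.91 (1421241_at) and -0.20 (1450177_at). It too was singled out after its values were seen, and its highest signal, 4512, was in KCASP1Tg 6.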
